A study of Sus scrofa with 11 samples.

Results

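Genes of the spliceosome core, the hnRNP proteins, the DDX and DHX helicases and the RBM proteins were compared between pig muscles rich and poor in slow fibres. Members were the rows whose symbol starts with HNRNP, SNRP, SNRNP, SF3A, SF3B, PRPF, U2AF, LSM, DDX, DHX or RBM. A row was kept where at least 4 of the 11 pigs had at least 1 CPM, the gene's count scaled to the total gene count of that pig. Of 120 rows with such a symbol, among 25322 genes in the table, 109 were kept. They fall into 35 core particle genes (SNRP, SNRNP, SF3A, SF3B, PRPF and LSM), 37 helicase genes (DDX and DHX) and 36 RNA-binding protein genes (HNRNP and RBM). The remaining one, LSMEM2, shares only the letters of the prefix and belongs to none of these classes.

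The samples are longissimus lumborum, a muscle of the back, from 11 female pigs aged 23 weeks, with 1 column of counts per pig. Technical repetitions are mentioned in the series' design, and whether they were pooled into that column is not stated. In the 7 pigs called fibre1, histology of the same muscle had given more than 17% type I fibres, which are slow and oxidative, and less than 70% type IIB fibres, which are fast and glycolytic. In the 4 pigs called fibre2B, type I fibres were under 8% and type IIB fibres over 70%. The labels name no treatment, breed or genotype, and the groups were formed by histology, so anything else that goes with fibre type in these pigs cannot be told apart from it.

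The spliceosome removes introns from pre-mRNA. Its core is built from small nuclear ribonucleoproteins (snRNPs), in which a small RNA is bound by a ring of Sm or LSM proteins and by proteins particular to the U1, U2, U4, U5 or U6 particle. U1 marks the 5′ splice site, U2 the branch point, and the U4/U6.U5 tri-snRNP then joins to form the catalytic complex. RNA helicases with the DEAD or DEAH signature use ATP to remodel these complexes, and relatives of theirs act in ribosome assembly, mRNA export, translation and decay. The hnRNP and RBM proteins bind the transcript and influence which splice sites are used. In muscle such choices set the isoforms of titin, troponins and other sarcomere proteins.

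Total gene counts ran from 14832736 to 36374829 per pig. The summed level of 5 slow-fibre genes was 7292 to 25572 CPM in fibre1 and 2342 to 8854 CPM in fibre2B, so the groups overlapped at the RNA level. The top of the fibre1 range was pig 1 alone, and the next fibre1 pig, pig 17, was at 9736 CPM. All 5 genes had positive fold changes, and 0 were called by edgeR (3 at an unadjusted p under 0.05, 1 called by DESeq2, 0 by limma-voom with quality weights). Over all genes, 3272 of 11329 tested had an unadjusted p under 0.05 in edgeR, the share to set beside such counts here and below. The summed level of 6 fast-fibre genes was not lower in fibre1 than in fibre2B, unlike the histological share of type IIB fibres: the fibre2B pigs had 72632 to 77722 CPM and the fibre1 pigs 67156 to 133470 CPM. Of these 6 genes 5 had positive fold changes, led by MYBPC2 (0.82 ± 0.33, adjusted p = 0.119) and ATP2A1 (0.75 ± 0.34, adjusted p = 0.165), and 0 were called by edgeR (2 at an unadjusted p under 0.05, 1 called by DESeq2, 0 by limma-voom with quality weights). The 10 most abundant nuclear genes took 45.2% and 44.1% of the counts in fibre1 pigs 5 and 6, against 29.5% to 36.8% in the other pigs. Summed markers of other cell types overlapped between groups as well: 12 fibroblast genes were at 545 to 1121 CPM in fibre1 and 824 to 1532 CPM in fibre2B, and 3 red-cell genes at 137 to 467 and 422 to 953 CPM. In the same order, 7 smooth muscle and pericyte genes were at 3904 to 7471 and 2717 to 5521 CPM. The sums were 86.0 to 163 and 87.4 to 136 CPM for 5 endothelial genes. For 4 adipocyte genes they were 15.3 to 100 and 10.4 to 140 CPM, and for 4 satellite cell genes 31.6 to 56.7 and 40.7 to 70.4 CPM. Of the 10 immune markers with an ID the sum was 6.87 to 24.5 CPM in fibre1 and 15.1 to 30.4 CPM in fibre2B, and none of these marker genes was at 0 in all pigs. Single markers were called higher in fibre2B, namely the fibroblast genes DCN (-1.13 ± 0.23, edgeR adjusted p = 0.019) and LUM (-1.05 ± 0.25, adjusted p = 0.026), the haemoglobin gene HBB (-1.27 ± 0.35, adjusted p = 0.041) and VCAM1 of the satellite cell list (-1.0 ± 0.29, adjusted p = 0.049). Their lists did not go one way: 3 of 11 fibroblast genes tested and 2 of 4 satellite cell genes had positive values, while both red-cell genes tested were negative. The interferon-stimulated genes IFIT2 (-1.50 ± 0.39, adjusted p = 0.035) and SAMD9 (-1.63 ± 0.45, adjusted p = 0.041) were called too, and 13 of 14 tested genes of that list had negative values. The summed level of that list was 303 CPM in fibre2B pig 14. In the other fibre2B pigs it was 75.3 to 114 CPM, within the fibre1 range of 39.3 to 125 CPM. The part of these markers in the results below, among them the members higher in fibre2B, was not tested. In bulk muscle, fewer cells or nuclei of a type and less RNA per cell cannot be told apart.

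Of the 109 members 10 had more RNA in fibre2B, 6 had more in fibre1, and 93 did not pass the test. A gene is called here when its Benjamini-Hochberg adjusted p in edgeR's quasi-likelihood test, taken over all 11329 genes tested, is under 0.05. Fold changes are log2, fibre1 minus fibre2B, with their standard error (SE), and levels are CPM scaled by TMM factors. The called members made up 14.7% of all members, against 9.01% of all genes tested and 9.87% of the 10002 genes that met the same CPM rule. By direction, 5.50% of members were higher in fibre1 (4.38% of all genes tested) and 9.17% higher in fibre2B (4.63%). For genes that met the CPM rule these shares were 4.89% and 4.98%, and for tested genes with a symbol 5.19% and 4.78%. The share of members higher in fibre1 was thus near that of comparable genes. The class as a whole did not lean to either side: 54 members had positive and 55 negative fold changes, with a median of -0.0041, beside 0.0073 for all genes tested. The changes were small, with a median size of 0.62 over called members and 0.82 over all called genes. Of the 109 members 1, PRPF39, differed by at least 2-fold. The groups did not overlap in 13 members, 11.9% of them, against 7.55% of all genes tested. The share was 8.14% of genes that met the CPM rule and 8.48% of tested genes with a symbol.

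**Figure D1:**
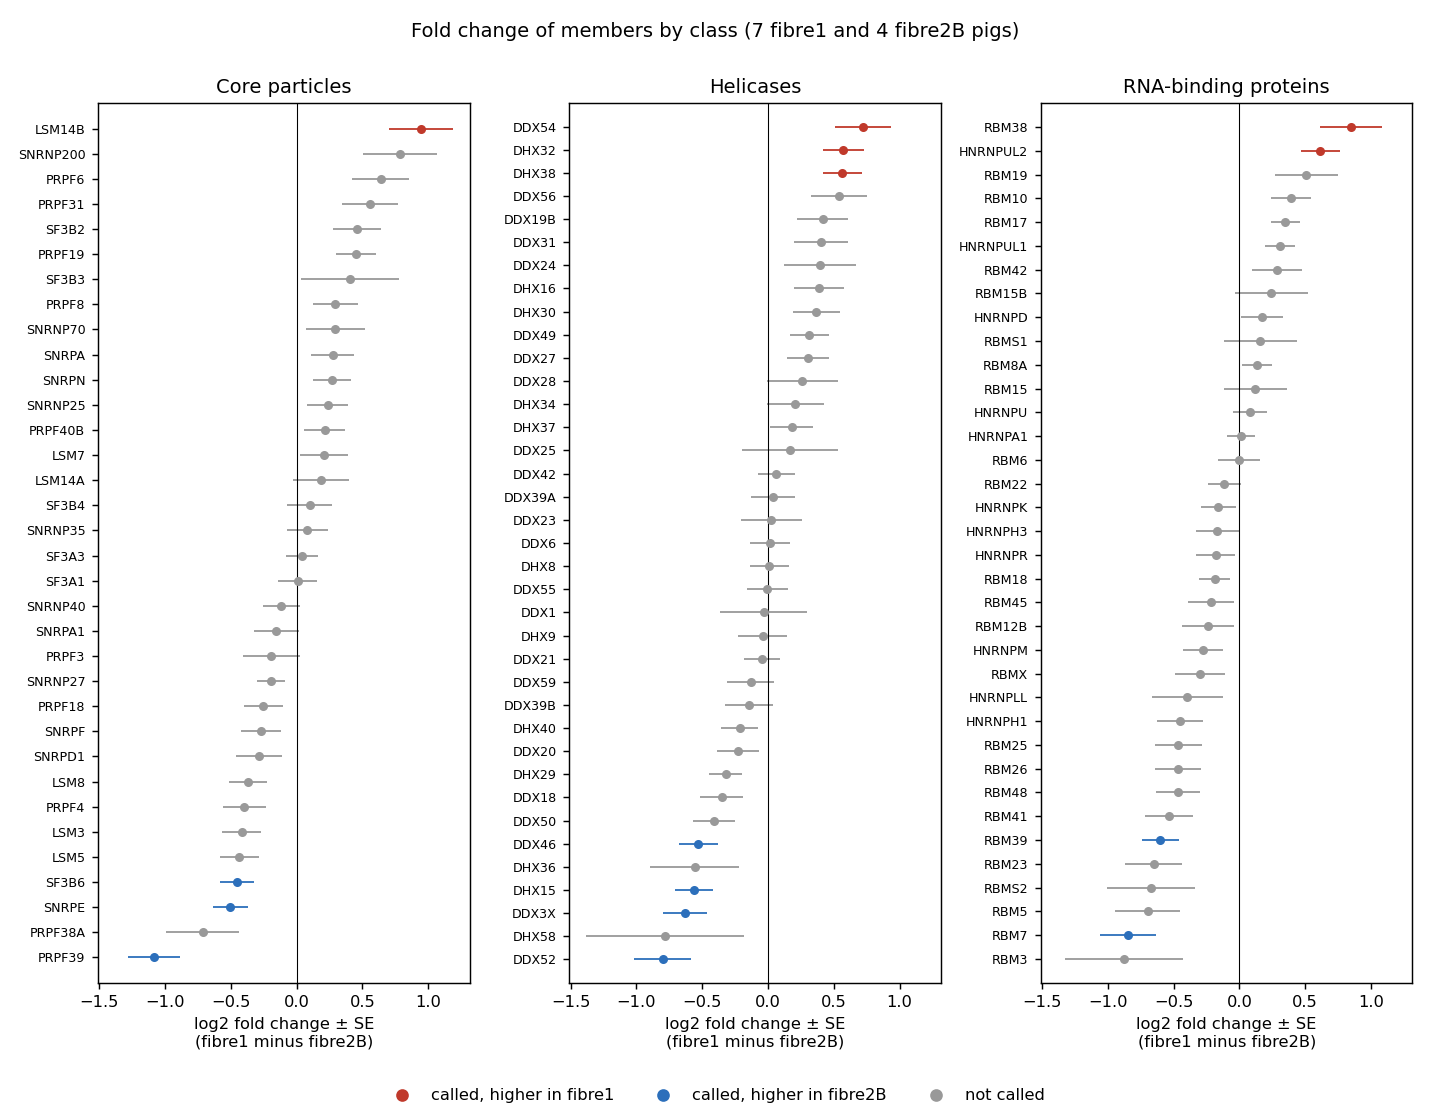
Log2 fold change, fibre1 minus fibre2B, of members on the x axis, in 3 panels by class and sorted by value; points are estimates, bars ± 1 SE, colours mark called members. Positive and negative values are about equally frequent in core particles and helicases, PRPF39 lies farthest to the left at -1.08, and LSM14B farthest to the right at 0.95.

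Among the core particles, 4 of 35 genes were higher in fibre2B (11.4%) and 1 was higher in fibre1 (2.86%). Over all genes tested these shares were 4.63% and 4.38%. PRPF39 (ENSSSCG00000004997), a partner of U1 in the recognition of 5′ splice sites, was at 11.6 to 24.2 CPM in fibre1, with a median of 15.9. In fibre2B it was at 25.3, 33.2, 33.3 and 45.7 CPM in pigs 11, 16, 14 and 10. Every fibre2B pig was thus above every fibre1 pig, though fibre1 pig 7 and fibre2B pig 11 lay side by side. Means were 16.2 ± 4.14 CPM (SD, n = 7) and 34.4 ± 8.45 CPM (n = 4), a log2 fold change of -1.08 ± 0.20 (edgeR adjusted p = 0.016), or 2.12-fold higher in fibre2B.

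The proteins of the U1 particle itself did not pass. SNRNP70, which holds the U1 RNA and contacts the 5′ splice site, had 38.6 ± 11.6 against 31.4 ± 5.30 CPM (0.29 ± 0.22, adjusted p = 0.404). SNRPA, the A protein of U1, had 0.28 and PRPF40B, a U1-associated protein, 0.21. All 3 had positive values that did not pass.

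The Sm ring holds the small RNA of the U1, U2, U4 and U5 particles, and 4 of its genes were members. SNRPE (ENSSSCG00000023562), the Sm protein E, was at 36.2 to 51.4 CPM in fibre1 (median 43.7). The fibre2B pigs 10, 16 and 11 had 56.5, 56.6 and 57.9 CPM, and pig 14 had 75.7 CPM. There was no overlap, and pig 14 stood apart from the other 3. On the log2 scale the difference was -0.50 ± 0.13 (edgeR adjusted p = 0.037). SNRPD1 (-0.29) and SNRPF (-0.27) did not pass, and SNRPN, an imprinted gene for a tissue-restricted copy of the Sm protein B, had 18.4 ± 2.84 against 15.3 ± 1.5 CPM (0.27 ± 0.14, adjusted p = 0.226).

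Of 7 genes of the U2 particle, SF3B6 was called. SF3B6 (ENSSSCG00000008587), the subunit that contacts the branch point adenosine, was at 22.1 to 30.4 CPM in fibre1 (median 27.0). It was at 32.0, 34.0, 35.4 and 44.4 CPM in fibre2B pigs 10, 16, 11 and 14. All fibre2B pigs were above the fibre1 range. This gave a log2 fold change of -0.45 ± 0.13 (edgeR adjusted p = 0.045). SNRPA1 also had a negative value and did not pass (-0.15 ± 0.17, adjusted p = 0.582). The larger scaffold subunits gave other values: SF3A1 had 0.01, SF3A3 0.04, SF3B4 0.10 and SF3B3 0.40. SF3B2 had 66.0 ± 14 against 48.0 ± 11.1 CPM (0.46 ± 0.18, adjusted p = 0.121).

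In the U4/U6.U5 particles 0 of 9 genes were called by edgeR, and DESeq2 and limma-voom with quality weights each called 1. An unadjusted p under 0.05 was found in 5 of them, beside 3272 of all 11329 genes tested. Values went both ways. PRPF6 (29.5 ± 7.85 against 18.9 ± 5.09 CPM, 0.64 ± 0.22, adjusted p = 0.077) and PRPF31 (0.56 ± 0.21, adjusted p = 0.106), which bridge U5 to U4/U6, had positive values. PRPF6 passed without fibre1 pig 12 (0.045) or fibre2B pig 11 (0.046). Without fibre1 pig 12 edgeR called 13.9% of all genes tested, against 9.01% in the reported fit, so passing there is not particular to a gene. Here and below, leave-outs in which a gene that was not called passed are descriptions only. PRPF8, the large protein at the catalytic centre, had 47.3 ± 9.34 against 38.5 ± 7.69 CPM (0.29 ± 0.17, adjusted p = 0.276). The U4/U6 protein PRPF4 (-0.40) and PRPF38A (-0.71) had negative values. SNRNP200, the helicase that unwinds U4 from U6, was among the lowest members kept, at 0.930 to 1.96 CPM in fibre1 and 0.688 to 1.09 CPM in fibre2B (0.79 ± 0.28, adjusted p = 0.086). It met the CPM rule in 6 fibre1 pigs and 1 fibre2B pig, and PRPF38A in 2 and 4. PRPF19, a ubiquitin ligase of the catalytic spliceosome, had 40.2 ± 6.44 against 29.4 ± 5.06 CPM (0.45 ± 0.15, adjusted p = 0.076), and it passed without fibre2B pig 11 (0.048).

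LSM proteins form the ring on U6 RNA, and with another subunit a ring that promotes mRNA decay. Of 4 such genes 0 were called by edgeR, 0 by DESeq2 and 2 by limma-voom with quality weights. An unadjusted p under 0.05 was found in 3, beside 3272 of all 11329 genes tested. LSM5 (28.6 ± 4.72 against 38.7 ± 6.18 CPM, -0.44 ± 0.15, adjusted p = 0.075), LSM3 (-0.42 ± 0.15, adjusted p = 0.091) and LSM8 (-0.37 ± 0.14, adjusted p = 0.107) had negative values, and LSM7 a positive one (0.21 ± 0.19, adjusted p = 0.483; -0.0443 with total counts only). In LSM8 the groups did not overlap, at 20.9 to 33.1 CPM in fibre1 and 33.6 to 39.6 CPM in fibre2B. LSM5 passed without fibre1 pig 17 (0.030) and LSM3 without fibre2B pig 11 (0.047).

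LSM14B (ENSSSCG00000026052) was the only core particle member called higher in fibre1. Its protein has an LSM domain but belongs to translational repression complexes in the cytoplasm, not to an snRNP. It was at 2.60 to 5.14 CPM in fibre1 (median 3.32) and at 1.51, 1.59, 1.77 and 2.38 CPM in fibre2B pigs 10, 14, 16 and 11. The groups did not overlap, and fibre1 pigs 6 and 1 were the highest. The log2 fold change was 0.95 ± 0.24 (edgeR adjusted p = 0.033). Its relative LSM14A had 0.19 ± 0.22 (adjusted p = 0.594).

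The core particle calls passed the threshold or missed it depending on the pigs used, while their fold changes moved less. When pigs were left out in turn, PRPF39 failed the test only when fibre2B pig 14 was omitted (adjusted p = 0.057), with a log2 fold change of -1.09 there and of -1.20 to -0.92 over all omissions. Without that pig edgeR called 0 of all genes tested. Many other calls depended on each of 7 pigs, fibre1 pigs 1, 2, 5 and 6 and fibre2B pigs 10, 14 and 16, named the 7 influential pigs below. LSM14B (adjusted p from 0.051 to 0.102) and SNRPE (0.058 to 0.135) failed when any of these 7 was omitted, and SF3B6 (0.059 to 0.164) when any pig but fibre1 pigs 12 and 17 was. Over all omissions of a single pig the log2 fold change of LSM14B was 0.83 to 1.12, that of SNRPE -0.55 to -0.38 and that of SF3B6 -0.51 to -0.34.

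Among the helicases 7 of 37 were called, 18.9%, beside 9.01% of all genes tested. Of these 4 were higher in fibre2B (10.8%, beside 4.63%) and 3 in fibre1 (8.11%, beside 4.38%). The called helicases of the spliceosome went in opposite directions. DHX15 (ENSSSCG00000008756), which takes apart the spliceosome after splicing, was at 19.2 to 27.6 CPM in fibre1 (median 22.6) and at 27.8, 31.3, 34.9 and 41.5 CPM in fibre2B pigs 11, 10, 16 and 14. The groups did not overlap but touched, with fibre1 pig 7 just under fibre2B pig 11. On the log2 scale the difference was -0.56 ± 0.14 (edgeR adjusted p = 0.032). DDX46 (ENSSSCG00000026644), which acts when U2 binds the branch point, was at 13.2 to 22.5 CPM in fibre1 (median 17.2) and at 21.5, 24.7, 25.6 and 28.4 CPM in fibre2B pigs 11, 14, 16 and 10. Fibre1 pig 7 was above fibre2B pig 11, so the groups overlapped by that pair. This gave a log2 fold change of -0.53 ± 0.15 (edgeR adjusted p = 0.043).

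DHX38 (ENSSSCG00000002748), which remodels the spliceosome between the catalytic steps, was higher in fibre1. It was at 7.07 to 10.6 CPM there (median 9.01) and at 5.52, 5.89, 6.13 and 6.37 CPM in fibre2B pigs 16, 11, 14 and 10. Every fibre1 pig was above every fibre2B pig, and the fibre2B pigs lay close together. Its log2 fold change was 0.56 ± 0.15 (edgeR adjusted p = 0.036). Other helicases of splicing and export had smaller values. DDX39B, which recruits U2 and later the export machinery, had 158 ± 31.7 against 174 ± 35.8 CPM (-0.15 ± 0.18, adjusted p = 0.627), DDX42 had 0.06, DDX23 0.02 and DHX8 0.01. The 9 genes of this group of 12 that were not called ranged from -0.23 to 0.41.

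DDX3X (ENSSSCG00000012252), an X-linked helicase that helps translation begin on structured mRNAs, was at 132 to 247 CPM in fibre1 (median 188). It was at 239, 264, 303 and 328 CPM in fibre2B pigs 16, 10, 14 and 11. Only fibre1 pig 17 reached the fibre2B range. The log2 fold change was -0.63 ± 0.17 (edgeR adjusted p = 0.038). DDX6, a helicase of mRNA decapping and translational repression, had 89.6 ± 17.4 against 88.6 ± 2.97 CPM (0.02 ± 0.15, adjusted p = 0.956), and its sign changed without fibre1 pig 6 or 17 and with upper-quartile factors or total counts only. DHX29, which helps the small ribosomal subunit to scan, had -0.32 ± 0.12 (adjusted p = 0.104). DHX36, which unwinds G-quadruplexes, had -0.56 ± 0.34 (adjusted p = 0.291). DHX36 was at 8.90 CPM in fibre1 pig 12, against at most 4.78 CPM in the other fibre1 pigs. It passed without that pig (-0.89, adjusted p = 0.036), as did 13.9% of all genes tested.

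Helicases of ribosome assembly gave 1 call each way among 12 (16.7% called, beside 9.01% of all genes tested). DDX54 (ENSSSCG00000009876) was at 33.6 to 69.5 CPM in fibre1 (median 49.8) and at 22.6, 28.4, 28.7 and 38.3 CPM in fibre2B pigs 14, 10, 16 and 11. Fibre2B pig 11 lay within the fibre1 range and the other 3 below it. This gave a log2 fold change of 0.72 ± 0.21 (edgeR adjusted p = 0.049). DDX52 (ENSSSCG00000021275) was at 3.81 to 6.61 CPM in fibre1 (median 5.33) and at 6.51, 7.02, 8.76 and 13.9 CPM in fibre2B pigs 16, 11, 10 and 14, and only pig 16 overlapped. Its log2 fold change was -0.80 ± 0.22 (edgeR adjusted p = 0.040), and without pig 14 it was -0.51 (adjusted p = 0.159). The 10 others ranged from -0.41 (DDX50) to 0.54 (DDX56).

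DHX32 (ENSSSCG00000010744), a DEAH-family member whose role in RNA metabolism is little defined, was at 7.41 to 11.2 CPM in fibre1 (median 9.44). It was at 5.73, 6.25, 6.54 and 6.65 CPM in fibre2B pigs 14, 16, 11 and 10. The groups did not overlap (log2 fold change 0.57 ± 0.15, edgeR adjusted p = 0.038). DHX9, a helicase of transcription and RNA structure, had 8.20 ± 2.0 against 8.47 ± 0.84 CPM (-0.04 ± 0.19, adjusted p = 0.903), with a positive value without fibre1 pig 5 or 17 or fibre2B pig 10. Neither mitochondrial helicase was called by edgeR, DESeq2 or limma-voom with quality weights, and 0 had an unadjusted p under 0.05. These were DHX30 (0.37) and DDX28 (0.26).

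**Figure D2:**
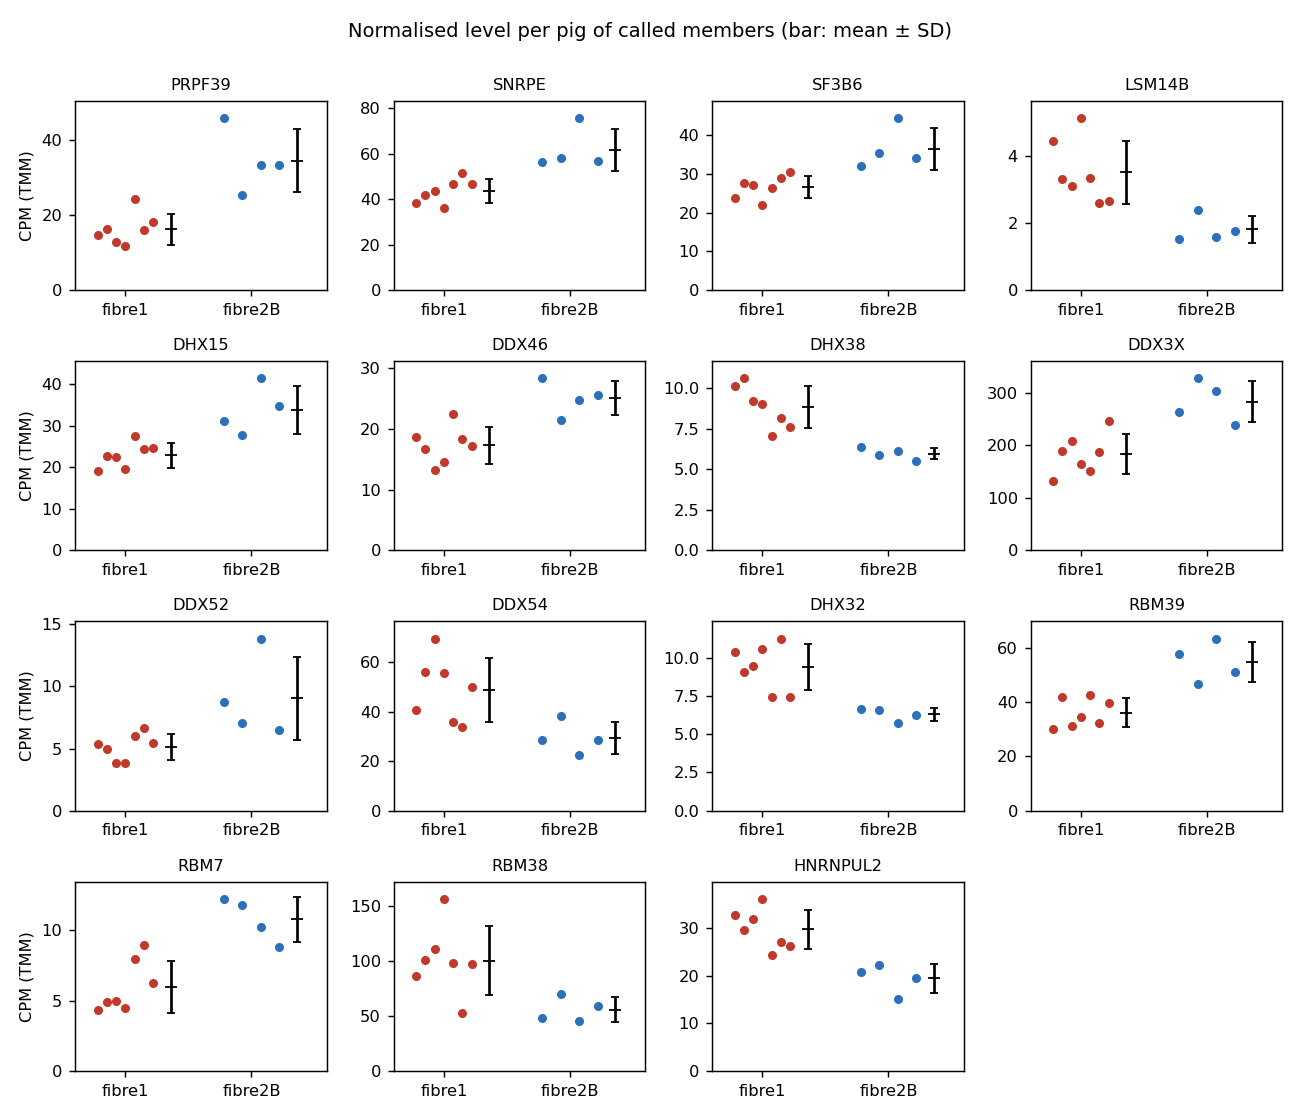
Normalised level (CPM on TMM-scaled libraries, y axis from 0) of 15 of the called members, 1 panel per gene, with 1 point per pig for the 7 fibre1 and 4 fibre2B pigs, and the mean ± SD beside the points. PRPF39, SNRPE, SF3B6, LSM14B, DHX15, DHX38, DHX32, RBM39 and HNRNPUL2 show no overlap between groups, while DDX46, DDX3X, DDX52, DDX54, RBM7 and RBM38 do.

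Leave-outs moved the helicase calls more evenly. DDX52 (adjusted p from 0.050 to 0.159) and DHX15 (0.054 to 0.118) failed when any of the 7 influential pigs was omitted. DDX46 (0.052 to 0.112) and DDX54 (0.060 to 0.152) failed for these and for fibre1 pig 17, DHX32 (0.058 to 0.117) and DHX38 (0.061 to 0.090) for these and for fibre2B pig 11, and DDX3X (0.050 to 0.118) for all pigs but fibre1 pigs 12 and 17. The log2 fold change of DDX52 ranged from -0.93 to -0.51 and that of DHX15 from -0.64 to -0.44, while that of DHX38 stayed between 0.52 and 0.62.

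DHX58, a cytoplasmic sensor of viral RNA that is itself induced by interferon, was named after its values were seen. It was at 0.520 to 2.43 CPM in fibre1 (median 1.33) and at 0.596, 0.834 and 1.04 CPM in fibre2B pigs 10, 16 and 11, but at 7.21 CPM in pig 14. Its log2 fold change of -0.78 ± 0.60 (edgeR adjusted p = 0.405) was 0.75 without that pig and 0.25 by limma-voom with quality weights. The summed level of 15 interferon-stimulated genes, a list that does not hold DHX58, was 303 CPM in pig 14 against 39.3 to 125 CPM in the other pigs. DDX60, another interferon-induced helicase gene, missed the CPM rule and had its highest value, 2.70 CPM of total counts, in the same pig. The part of these interferon-stimulated levels in other results was not tested.

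**Figure D3:**
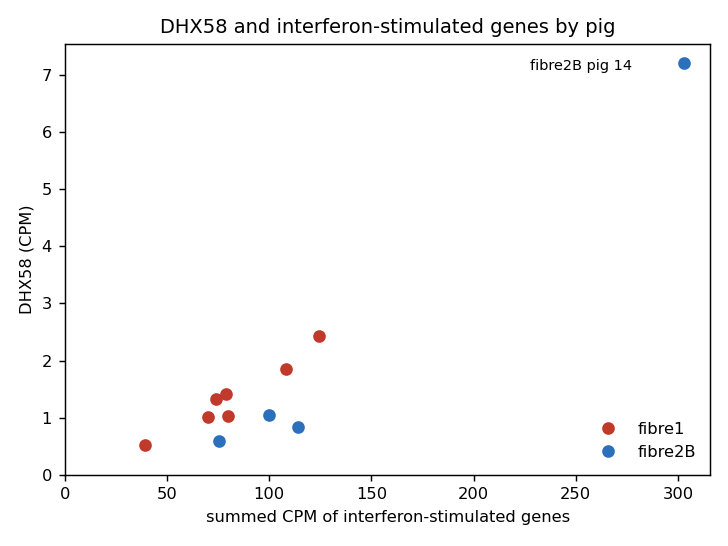
DHX58 level (CPM, y axis) against the summed CPM of 15 interferon-stimulated genes (x axis), 1 point per pig, coloured by group. Fibre2B pig 14 lies at 303 and 7.21 CPM, and the other pigs at most at 125 and 2.43 CPM.

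Among the RNA-binding proteins 4 of 36 were called, 11.1%, near the 9.01% of all genes tested. There were 2 in each direction (5.56%, beside 4.38% of all genes tested higher in fibre1 and 4.63% in fibre2B). RBM39 (ENSSSCG00000007309), a U2AF-related coactivator and splicing factor, was at 30.0 to 42.8 CPM in fibre1 (median 34.6). It was at 46.9, 51.1, 57.8 and 63.5 CPM in fibre2B pigs 11, 16, 10 and 14. The groups did not overlap. On the log2 scale the difference was -0.60 ± 0.14 (edgeR adjusted p = 0.025), or 1.52-fold higher in fibre2B. RBM7 (ENSSSCG00000027905), part of the nuclear complex that hands non-coding transcripts to the RNA exosome, was at 4.35 to 8.96 CPM in fibre1 (median 4.94) and at 8.80, 10.22, 11.8 and 12.2 CPM in fibre2B pigs 16, 14, 11 and 10. Fibre1 pig 12 lay just above fibre2B pig 16, and the log2 fold change was -0.84 ± 0.21 (edgeR adjusted p = 0.032).

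RBM38 and HNRNPUL2 were higher in fibre1. RBM38 (ENSSSCG00000007504), which stabilises mRNAs such as that of the cell-cycle inhibitor p21 and is known from muscle differentiation, was at 52.6 to 156 CPM in fibre1 (median 98.1). It was at 45.1, 48.4, 59.0 and 70.0 CPM in fibre2B pigs 14, 10, 16 and 11. Fibre1 pig 12 was the only fibre1 pig within the fibre2B range. The log2 fold change was 0.85 ± 0.24 (edgeR adjusted p = 0.042). HNRNPUL2 (ENSSSCG00000028542), a relative of the nuclear scaffold protein HNRNPU, was at 24.3 to 36.1 CPM in fibre1 (median 29.5) and at 15.04, 19.5, 20.8 and 22.2 CPM in fibre2B pigs 14, 16, 10 and 11. There was no overlap, and the log2 fold change was 0.61 ± 0.15 (edgeR adjusted p = 0.029).

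Among the hnRNP genes HNRNPA1, HNRNPK and HNRNPU differed little, and others differed more. HNRNPA1, a repressor of exon inclusion, had 87.4 ± 4.89 against 86.7 ± 6.62 CPM (0.01 ± 0.11, adjusted p = 0.957), and its sign changed without fibre1 pig 6, without fibre2B pig 14 or 16, and with upper-quartile factors or total counts only. HNRNPK, which binds C-rich RNA, had 128 ± 16.1 against 142 ± 20 CPM (-0.16 ± 0.14, adjusted p = 0.461). HNRNPU had 70.9 ± 8.21 against 66.9 ± 7.76 CPM (0.08 ± 0.13, adjusted p = 0.703; -0.13 with total counts only). HNRNPH1, which binds G-rich runs, had -0.45 ± 0.18 (adjusted p = 0.110). HNRNPLL (-0.40 ± 0.27, adjusted p = 0.346) and HNRNPM (-0.27 ± 0.15, adjusted p = 0.251) did not pass either. Of the 11 hnRNP genes 5 had positive and 6 negative values. HNRNPUL1 had 59.0 ± 3.28 against 47.7 ± 6.02 CPM without overlap between groups (0.31 ± 0.12, adjusted p = 0.101). Of 11 hnRNP genes HNRNPUL2 was thus the only one called (9.09%, beside 9.01% of all genes tested).

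Of 10 RBM genes of the spliceosome and of splice-site choice, RBM39 was called. An unadjusted p under 0.05 was found in 6, beside 3272 of all 11329 genes tested. RBM5, which regulates exon choice in apoptosis genes, had 61.9 ± 22.4 against 100.4 ± 27.5 CPM (-0.70 ± 0.25, adjusted p = 0.085). Fibre1 pig 7 had 108 CPM of RBM5 and the other fibre1 pigs at most 70.9 CPM, and the gene passed without pig 7 (-0.89, adjusted p = 0.022). RBM25, which binds U1-associated factors, had -0.46 ± 0.18 (adjusted p = 0.105) and also passed without pig 7 (-0.56, adjusted p = 0.042). RBM17, which recognises splice sites late in assembly, had 21.3 ± 1.61 against 16.7 ± 0.34 CPM with no overlap (0.35 ± 0.11, adjusted p = 0.064). RBM17 passed without fibre1 pig 12 (adjusted p = 0.049), as did 13.9% of all genes tested.

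The remaining RBM genes varied more. RBM3, induced by cold and other mild stress, was at 9.76 to 63.3 CPM in fibre1 (median 26.0) and at 26.5, 29.5, 41.6 and 100.1 CPM in fibre2B pigs 16, 14, 11 and 10. Single pigs were highest in each group, pig 12 in fibre1 and pig 10 in fibre2B. Its log2 fold change was -0.88 ± 0.45 (edgeR adjusted p = 0.215). It passed without fibre1 pig 12 (-1.25, adjusted p = 0.047), as did 13.9% of all genes tested. RBM23, a relative of RBM39, had -0.65 ± 0.22 (adjusted p = 0.070), and RBM41 -0.53 ± 0.18 (adjusted p = 0.080). The m6A-related genes RBM15, RBM15B and RBMX had values of 0.12, 0.24 and -0.30, and 0 of these 3 was called by edgeR, DESeq2 or limma-voom with quality weights or had an unadjusted p under 0.05. Over the class 22 of 36 values were negative, with a median of -0.17, beside 0.04 for core particles and 0.02 for helicases.

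In this class RBM39 failed only when fibre2B pig 10, 14 or 16 was omitted (adjusted p from 0.057 to 0.089). HNRNPUL2 (0.052 to 0.094) and RBM38 (0.057 to 0.136) failed for each of the 7 influential pigs, and RBM7 (0.052 to 0.085) for these and for fibre2B pig 11. The log2 fold change was -0.66 to -0.52 for RBM39, 0.52 to 0.69 for HNRNPUL2, 0.70 to 0.99 for RBM38 and -0.98 to -0.78 for RBM7.

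Spread between pigs of a group was measured as the coefficient of variation (SD over mean). Its median in fibre1 was 16.5% over core particles, 18.7% over helicases and 18.8% over RNA-binding proteins, beside 23.4% over the 10002 genes that met the CPM rule. In fibre2B, with fewer pigs, the order of the classes was the opposite, at 18.4%, 16.9% and 15.7%, beside 20.1%. HNRNPUL1 (5.56%), HNRNPA1 (5.59%) and the tri-snRNP gene SNRNP27 (6.02%) varied least in fibre1. RBM3 (65.9%), DHX36 (57.6%) and DDX1 (49.8%), a helicase of tRNA splicing, varied most there. In fibre2B DHX58 (132%) and RBM3 (69.6%) varied most, while DHX36 was at 18.5% and DDX1 at 15.6%. Counting error is part of this spread in members with few counts, such as SF3B3 with a median of 35 counts per pig (48.0%).

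The pigs of fibre1 did not contribute equally to the called members. The 6 members called higher in fibre1 had a median log2 deviation from the mean of the group means of 0.38 to 0.58 in pigs 1, 2, 5 and 6. The same median was 0.11 in pig 12, 0.10 in pig 17 and -0.0007 in pig 7. For the 10 members called higher in fibre2B it was -0.30 to -0.55 in pigs 1, 2, 5 and 6, -0.17 in pigs 12 and 17, and -0.03 in pig 7. In fibre2B pig 14 was the most extreme, at -0.58 and 0.52, and pig 11 the least, at -0.0784 and 0.11. These members were selected by the same contrast, so the separation itself is a description. For the members that were not called, which go both ways and were not split by direction, the median was between -0.0758 and 0.0627 in every pig, while single ones ranged more widely, RBM3 from -1.63 to 1.66 and DHX58 up to 2.01.

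**Figure D4:**
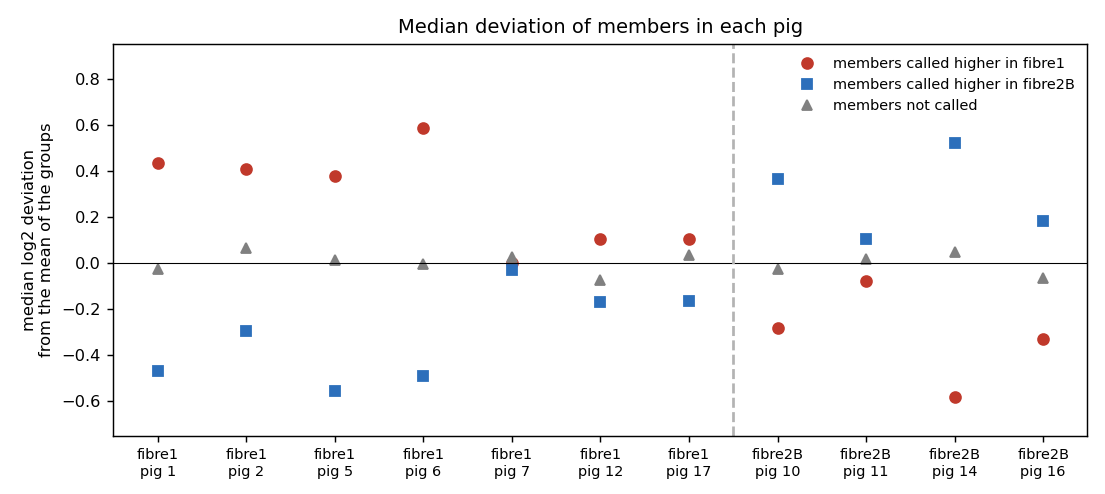
Median log2 deviation from the mean of the 2 group means (y axis) for the 6 members called higher in fibre1, the 10 called higher in fibre2B and the 93 not called, in each pig (x axis, fibre1 left of the dashed line). Fibre1 pig 7 and fibre2B pig 11 lie near 0, and fibre2B pig 14 lies farthest from fibre1 pig 6 for the 6 members and from fibre1 pig 5 for the 10.

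Genes of the same machinery outside the named prefixes were taken from fixed lists. Of 29 other spliceosome genes tested, 4 were higher in fibre2B (13.8%) and 0 higher in fibre1 by edgeR, beside 4.63% and 4.38% of all genes tested. DESeq2 called 7, of which 2 were higher in fibre1, and it called 15.4% of all genes tested. BCLAF1, a serine- and arginine-rich factor bound to spliced mRNPs, was at 24.3 to 42.3 CPM in fibre1 (median 35.8) and at 47.7, 55.7, 59.7 and 66.6 CPM in fibre2B pigs 16, 11, 10 and 14. The groups did not overlap (-0.71 ± 0.17, edgeR adjusted p = 0.025). PNN, a partner of the exon junction complex, had 24.1 ± 5.92 against 38.7 ± 7.81 CPM (-0.69 ± 0.19, adjusted p = 0.039). CDC40, a factor of the second catalytic step, had 6.10 ± 1.31 against 9.47 ± 0.58 CPM (-0.63 ± 0.17, adjusted p = 0.039), and CWC22, which loads the exon junction complex, had -0.56 ± 0.16 (adjusted p = 0.045). BCLAF1 failed when fibre1 pig 2 or fibre2B pig 10 or 14 was omitted (0.051 to 0.089), and PNN for each of the 7 influential pigs (0.065 to 0.109). CDC40 (0.059 to 0.115) failed for these and fibre2B pig 11, and CWC22 (0.056 to 0.158) also for fibre1 pig 17.

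Of 11 genes that assemble the Sm ring 1 was called (9.09%, beside 9.01% of all genes tested). WDR77, a partner of the methyltransferase PRMT5, was higher in fibre1 (32.3 ± 4.24 against 21.3 ± 3.82 CPM, 0.60 ± 0.15, edgeR adjusted p = 0.029), without overlap between groups. GEMIN2 (-0.31 ± 0.12, adjusted p = 0.114), of the SMN complex, and the import adaptor SNUPN (0.42 ± 0.19, adjusted p = 0.169) did not pass. GEMIN2 passed without fibre1 pig 12 (0.049), as did 13.9% of all genes tested. WDR77 failed when any of the 7 influential pigs was omitted (0.051 to 0.093).

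Of 14 decay partners of the LSM ring 0 were called by edgeR, 0 by DESeq2 and 1 by limma-voom with quality weights. An unadjusted p under 0.05 was found in 4, near the share over all genes tested (3272 of 11329). The smallest p values belonged to the decapping factor EDC3 (0.48 ± 0.17, adjusted p = 0.083), the deadenylase subunit CNOT3 (0.41 ± 0.16, adjusted p = 0.110) and PATL1 (0.55 ± 0.22, adjusted p = 0.120). EDC3 passed without fibre1 pig 12 (0.049), as did 13.9% of all genes tested.

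Of 28 other RNA-binding proteins 4 were called (14.3%, beside 9.01% of all genes tested). With more RNA in fibre1 there were 3 (10.7%, beside 4.38%). MBNL1, a regulator of the fetal-to-adult splicing switch in muscle, was higher in fibre2B, at 184 to 303 CPM in fibre1 (median 200.3) and at 253, 279, 401 and 403 CPM in fibre2B pigs 14, 16, 10 and 11. Fibre1 pig 17 was the only fibre1 pig within the fibre2B range (-0.63 ± 0.18, edgeR adjusted p = 0.043). KHSRP, which promotes decay of AU-rich mRNAs (0.62 ± 0.18, edgeR adjusted p = 0.048), and the hnRNP-related RALY (0.64 ± 0.19, adjusted p = 0.049) were higher in fibre1, both with overlap. MBNL1 failed when any of the 7 influential pigs or fibre2B pig 11 was omitted (0.064 to 0.117). RALY failed for these, pig 11 and fibre1 pig 17 (0.054 to 0.126), and KHSRP for these, pig 11 and fibre1 pig 7 (0.058 to 0.152).

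The count of called members changed when single pigs were left out, more than the fold changes did. In 15 of the 16 called members the log2 fold change stayed within 1.5 times the reported one whichever pig was omitted, the exception being DDX52 without fibre2B pig 14. Without fibre2B pig 14, edgeR called 0 members, with 30 at an unadjusted p under 0.05, and 0 of all genes. In the reported fit 40 members, and 3272 of all 11329 genes tested, had an unadjusted p under 0.05. DESeq2 without that pig called 8 members (6.73% of all genes) and limma-voom with quality weights 15 (9.49% of all genes). Omitting fibre1 pigs 5 and 6, whose counts were most concentrated in a few genes, left 0 members called by edgeR, with 27 at an unadjusted p under 0.05, and 0.249% of all genes. With that concentration as a covariate 4 members were called (4.06% of all genes), PRPF39, DDX3X and RBM39 among them, all higher in fibre2B. With all pigs, DESeq2 called 22 members and limma-voom with quality weights 27, each against 15.4% of all genes. Scaling by total counts only left 2 members (1.39% of all genes) and no filter on low counts 9 (4.01%), while omitting fibre1 pig 12 gave 21 (13.9%). The direction of all 16 called members was the same in each of the 23 other fits, which reuse the same pigs.

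**Figure D5:**
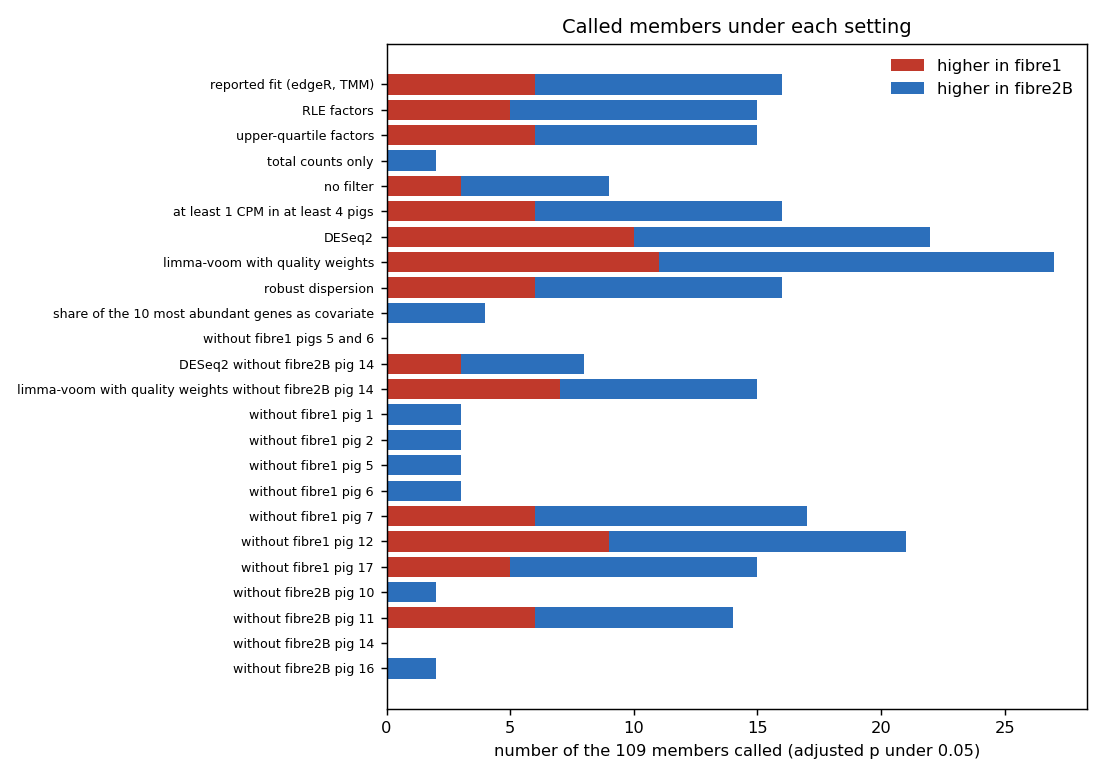
Number of the 109 members called (x axis) under the reported fit and each alternative (y axis), split into those higher in fibre1 and higher in fibre2B. The bar reaches 16 in the reported fit and 27 with limma-voom and quality weights, and is 0 when fibre2B pig 14, or fibre1 pigs 5 and 6 together, are left out.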

How the data were processed

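The authors deposited expected counts per Ensembl gene (estimated read counts, not normalised, without decimals), 1 column per pig. The submitters' processing notes list build Sscrofa10.2, STAR, RSEM, CASAVA 1.8.2, FastQC, DESeq2 and edgeR, without order or settings. Libraries were made with a TruSeq RNA kit, per the labels' protocols, and strand is not given in the sources used here. Reads of antisense partners may therefore be mixed. Apart from strand, reads of near-identical copies (SNRPE, SNRPF, HNRNPA1, RBMX, DDX39A and DDX39B, SNRPN) may be mixed or split. Replicates are pigs, and columns were joined to them by the number in the title. Columns of other samples numbered 0.

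A table pairing Ensembl IDs with symbols named 11804 of 25322 rows; rows without a symbol held 20.7% of counts. No row carries the symbol SF3B1, U2AF1, U2AF2, LSM4, DDX5, DDX17, DDX58, HNRNPA2B1, HNRNPC or RBM24, so these are not analysed here. DDX4, DDX11, DDX51, DDX60, DHX35, DHX57, RBM20, RBM27, RBM44, RBM46 and RBM47 missed the CPM rule. The nearest to it were DDX11, whose fourth-highest pig had 0.962 CPM, and SNRNP200 with 1.19 CPM. Of the 109 members 99 reached 1 CPM in all pigs and 10 in fewer. The isoform table was not used, no sequences were used, and coordinates are not given because the reference table is of another build.

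The quasi-likelihood F test of edgeR 4.0.16 (R 4.3.3) was run on the rounded counts, with TMM factors, filterByExpr and group as the only term, and adjusted over 11329 genes. The SE is the size of the log2 fold change over the square root of F. The biological coefficient of variation was 29.8%. Deviations use log2(CPM + 0.5). Alternatives were other factors and filters, DESeq2 1.42.0, limma-voom 3.58.1 with quality weights, robust dispersion, a composition covariate and leaving out pigs. The fits were tested on simulated data, where the share of false calls was above the nominal 0.05 for edgeR, limma-voom and DESeq2, and largest for DESeq2, whose counts should be read with that in mind. Members, lists and roles were chosen with earlier results of these data known. Named genes were up to 5 called members of each class and direction with the smallest p, the extreme folds, 27 landmarks, and 3 genes of each outside list with the smallest p. Other genes with values were added after their values were seen. A few called genes enter the counts but are not reported here by name.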

Additional observations from a re-analysis of the deposited data

Results flagged for a closer look

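In 13 of 124 groups tested over the named genes, 1 pig stood apart from the rest of its group by Dixon's 95% criterion. Chance gives about 1 in 20, but 5 of the 13 fall on the 23 genes named after their values were seen (RBM17, RBM5, DHX58, DHX36 and LSM5), so the number is no measure against chance. Levels are CPM, with the nearest other pig of the group in brackets. Fibre2B pig 14 was the highest for DHX58 at 7.21 (1.04) and SNRPE at 75.7 (57.9), and the lowest for RBM17 at 16.2 (16.8) and KHSRP at 5.34 (6.92). Fibre1 pig 12 was the highest for RBM3 at 63.3 (30.3), DHX36 at 8.90 (4.78) and GEMIN2 at 22.2 (19.0). Fibre1 pig 7 was the highest for RBM5 at 108 (70.9) and PNN at 36.4 (25.9). Fibre1 pig 17 was the highest for MBNL1 at 303 (222) and LSM5 at 38.4 (29.7). Fibre2B pig 11 was the highest for PRPF8 at 49.9 (36.1), and fibre2B pig 16 for SNRNP200 at 1.09 (0.738).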

How the results depend on the processing

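No paired analysis was possible because the groups share 0 replicate numbers. Called genes are given in the order all members, core particles, helicases, RNA-binding proteins and other spliceosome genes, and numbered 16, 5, 7, 4 and 4 in the reported fit. They were 2, 1, 1, 0 and 0 with total counts only, 9, 3, 2, 4 and 2 with no filter, 22, 7, 7, 8 and 7 by DESeq2, and 27, 10, 8, 9 and 8 by limma-voom with quality weights. They were 4, 2, 1, 1 and 1 with the covariate, 0 in each set without fibre1 pigs 5 and 6, and 8, 3, 2, 3 and 2 by DESeq2 without fibre2B pig 14. Leaving out a pig in turn gave 0 to 21, 0 to 7, 0 to 8, 0 to 7 and 0 to 6, with 0 members in all without fibre2B replicate 14. With total counts only, both calls were higher in fibre2B and the median of all genes was -0.19, against 0.0073. There the class medians were -0.17 (core particles), -0.20 (helicases) and -0.37 (RNA-binding proteins). The helicase median was 0.086 by limma-voom with quality weights, 0.14 by that tool without fibre2B pig 14 and 0.13 by DESeq2 without it. Leaving out a pig in turn moved the core particle members median log2 fold change from -0.0069 to 0.14 (highest without fibre2B pig 11) and the other medians from -0.022 to 0.12 (helicases, highest without fibre2B pig 14) and from -0.21 to -0.14 (RNA-binding proteins). The cause of these shifts was not tested.

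Signs turned for 7 named genes, none of them called. With total counts only, HNRNPA1 was at -0.19, HNRNPU at -0.13, LSM7 at -0.044 and DDX6 at -0.20, and with upper-quartile factors HNRNPA1 at -0.019 and DDX6 at -0.023. With the covariate DDX6 was at -0.0047 and DHX9 at 0.058, and without fibre1 pigs 5 and 6 they were at -0.0037 and 0.068. DHX58 was at 0.25 by limma-voom with quality weights, and without fibre2B pig 14 at 0.72 by that tool and 0.76 by DESeq2, where DDX39B was at 0.0045. Leaving out a pig in turn gave -0.015 to 0.069 for HNRNPA1, -0.063 to 0.084 for DDX6, -1.11 to 0.75 for DHX58 and -0.15 to 0.025 for DHX9. Depth limits the members near 1 CPM, such as SF3B3 with a median of 35 counts per pig.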

Other observations

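The members together took 0.221% (fibre1 pig 5) to 0.388% (fibre2B pig 14) of the counts of a pig. Fibre2B pig 14 held the highest level of 29 of the 109 members and the lowest of 18, and fibre1 pig 6 the highest of 14 and the lowest of 25. Fibre2B pig 11 was highest in 11 members and lowest in 1. LSMEM2, a membrane protein gene that shares only the prefix, was at 2.03 ± 0.504 CPM in fibre1 and 1.17 ± 0.634 CPM in fibre2B (log2 fold change 0.78 ± 0.33, edgeR adjusted p = 0.133).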
